A study of Mus musculus with 5 samples.

Results

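The genes described here are the collagens and other extracellular matrix genes measured in forelimb muscle of mouse embryos at E15.5 (embryonic day). They were taken by gene symbol alone, as collagen, laminin, integrin, ADAM, ADAMTS, matrix metalloproteinase (MMP), TIMP, fibulin, fibrillin, latent TGF-beta binding protein, thrombospondin and lysyl oxidase genes together with single matrix proteins such as fibronectin, tenascins, periostin, dermatopontin and the proteoglycans, with Mmp13 left out. In all, 83 of the 4743 genes in the tables met that rule. Muscle tissue was compared between 3 Noggin-deficient and 2 wild type samples of strain C57BL/6, by RNA sequencing of stranded mRNA libraries. Noggin is an extracellular antagonist of bone morphogenetic proteins (BMPs), which it keeps from their receptors. The sources used here give neither the allele nor whether a sample is 1 embryo or several, so p-values speak of the spread among 5 samples, part of which may be technical. No batch is given in the labels.

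The extracellular matrix around muscle is built from fibrillar collagens, which give tensile strength, and from a basement membrane of laminins, type IV collagen, nidogens and perlecan that sheathes each fibre. Integrins and the dystroglycan complex hold the fibre to that sheath. Proteases of the MMP and ADAMTS families cut and remodel matrix proteins, TIMPs inhibit them, and lysyl oxidases and prolyl and lysyl hydroxylases modify and cross-link collagen.

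The values are an expression signal that the authors normalized, with its unit not stated, so levels are compared between samples. Sums over a list and ratios of genes are likewise compared between samples, and a sum leans on the genes with the largest values. Depth is unknown. Summed over the listed genes, the values came to between 92210.3 and 93694.6 per Noggin-deficient library and between 100792 and 102783 per wild type library. Nog itself was at 0.49, 0.42 and 0.42 in Noggin-deficient muscle and at 2.0 and 1.99 in the wild type samples. The tables hold genes that already differ between these samples: on the fitted log2 scale, no gene with a mean of 1 or more lay between -0.203 and 0.295. Of 3913 genes tested, 98.0% passed the test in one direction or the other, and for 98.2% of the 4743 genes no library of 1 group reached into the other. A matrix gene that is called, or whose groups do not overlap, therefore shares this with nearly every gene in the tables, and what can be read here is the direction, the size and the order of the changes.

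Of the 83 matrix genes, 77 passed the filter on low values (at least 0.5 in at least 2 libraries), 61 of them fell and 14 rose in the Noggin-deficient samples, and 2 did not pass the test. Over all genes tested, 60.1% fell and 37.9% rose. The median log2 change of the matrix genes was -0.35 and that of all genes tested -0.28. In none of the 83 did a Noggin-deficient library overlap a wild type library. Only 6 changed by significantly more than 1.5-fold: Adam11, Mmp11 and Mmp9 rose and Adamtsl4, Tnxb and Dpt fell. By that stricter test 4.22% of all genes were higher and 10.3% lower. Fewer cells of a type and less RNA per cell cannot be told apart in tissue samples such as these. The matrix genes were measured with little spread, the median coefficient of variation being 2.27% in the Noggin-deficient group and 1.62% in the wild type group. Over all genes tested it was 4.64% and 3.51%, a comparison not matched for expression level or transcript length.

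**Figure D1:**
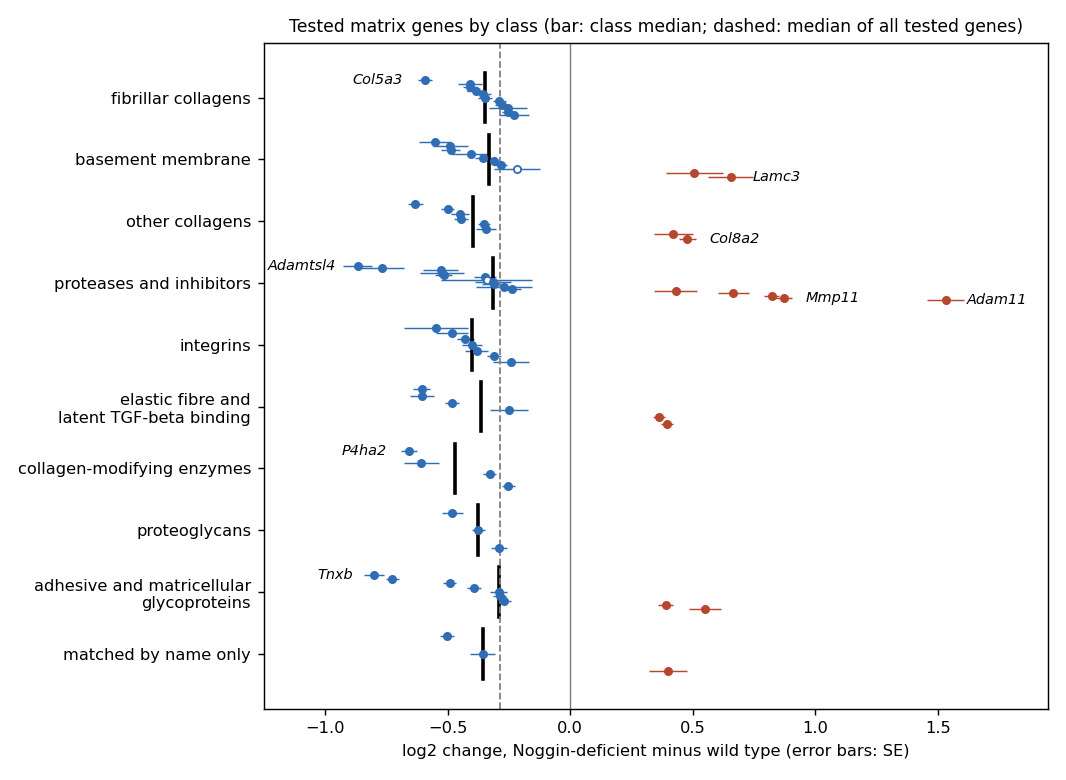
Each point is 1 of the 77 tested matrix genes, placed by its log2 change (Noggin-deficient minus wild type, values as deposited, bars showing the SE) in its class; open points did not pass the test, black bars are class medians and the dashed line is the median of all genes tested (-0.28). Every class median lies below 0, fibrillar collagens, integrins, collagen-modifying enzymes and proteoglycans lie on the lower side alone, and Adam11 at 1.53 is the highest point.

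Library scaling and transcript length bear on every fall in this gene set. Median-of-ratios scaling, which sets the typical listed gene to the same level in each library, shifted the median over all genes by 0.255 in log2. It centres on a list in which 98.0% of the genes tested passed the test and more fell than rose. It is therefore an alternative treatment and not a correction. Under it 34 matrix genes remained lower and 14 higher, against 32.5% lower and 38.0% higher over all genes. Matrix transcripts are also long: the median longest transcript was 5188 bases, against 3214 over the tested genes with a known length, and longer transcripts in these tables were more often lower in the Noggin-deficient samples. After removal of the trend on transcript length, 24 matrix genes were lower and 19 higher, against 34.8% and 33.4% over all genes. The median of the matrix genes was -0.08 under the scaling and -0.03 with the length trend taken out. The values below are as deposited unless said otherwise.

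Length and direction went together among the matrix genes much as they did elsewhere. Of 21 tested matrix genes with a transcript of 7000 bases or more, 1 had a positive log2 change (4.76%), Lama1. Over all genes of that length the share was 6.73%. From 5000 to under 7000 bases the shares were 9.09% of 22 matrix genes and 11.3% of all genes, from 3000 to under 5000 bases 24% of 25 and 30.1%, and under 3000 bases 55.6% of 9 and 58.8%. Across the 77 matrix genes the Spearman correlation of log2 change with length was -0.186, and across 3737 genes -0.294. These are descriptions across genes, which share the same 5 libraries.

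**Figure D2:**
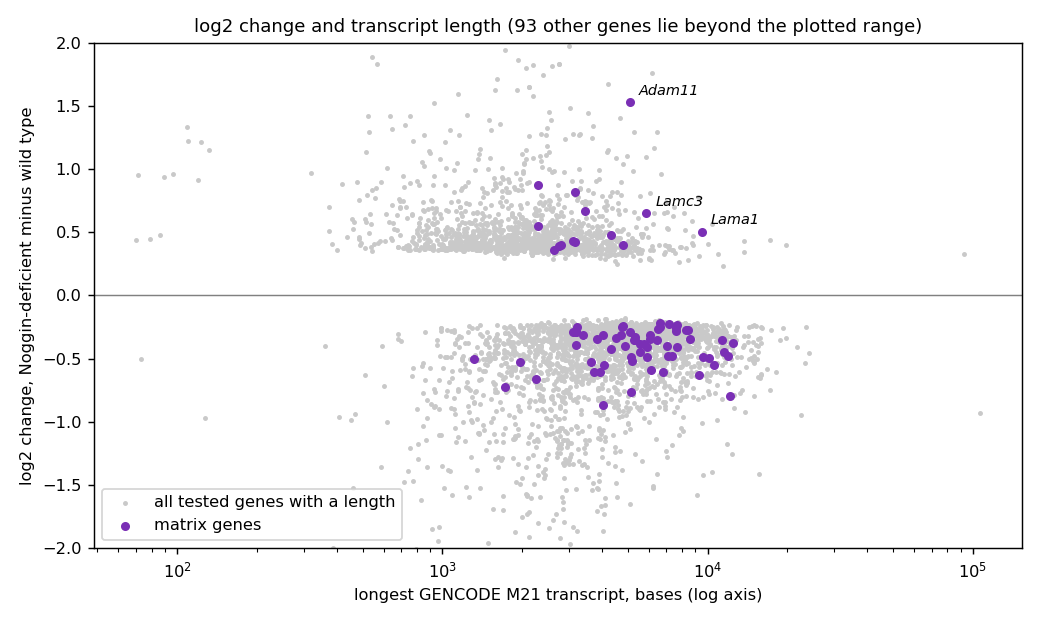
The log2 change (Noggin-deficient minus wild type) is plotted against the longest GENCODE M21 transcript in bases on a log axis, with the matrix genes in purple and all tested genes with a known length in grey. Nearly all matrix genes over 5000 bases lie below 0, as do most grey points of that length, and Adam11, Lamc3 and Lama1 stand above it; the empty band around 0 is where the tables hold no genes, and 93 other genes lie beyond the plotted range of 2 log2 units either way.

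Fibrillar collagens fell without exception in the values as deposited. All 11 chains that the mouse RefSeq annotation names in this class were in the tables, all 11 were called lower (background 60.1%), and their changes spanned only -0.59 to -0.23, with a median of -0.35. With median-of-ratios scaling 5 of the 11 remained lower and 6 were not called, and their median was -0.08. With the length trend taken out 1 was lower, 2 were higher and 8 were not called, and the median turned to 0.00. Col1a1 and Col1a2 encode the chains of type I collagen, the main collagen of bone, tendon and connective tissue. Col1a1 was at 3109.8, 3111 and 3125 in Noggin-deficient muscle and 4184 and 4089.7 in wild type muscle, a difference in log2 of -0.41 (SE 0.0481, limma's adjusted p = 0.00012). Col1a2 was at 794.4, 784.2 and 786.0 against 1017 and 999.7, a change of -0.36 (SE 0.0340, limma's adjusted p = 4e-05). Col3a1, the type III chain of stretchable tissue, was at 1104, 1109 and 1088 against 1439 and 1431, a change of -0.38. Within each gene every Noggin-deficient value lay below both wild type values.

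Promoter sequences were matched for 56 of the 83 matrix genes. Those of Col1a2 and Col3a1, of Col5a3, the fibrillar chain with the largest fall, and of Mmp11, a protease that rose, are shown so that the genes that moved apart can be compared. Each is the 150 bases before the annotated start, 5′ to 3′ on the gene's strand, from RefSeq on build GRCm38.p6: chr6:4505468-4505617 (plus strand), chr1:45311388-45311537 (plus strand), chr9:20815068-20815217 (minus strand) and chr10:75932503-75932652 (minus strand). Capitals mark matches, on either strand, to any of 5 motifs. TATAAA is the TATA box and CCAAT the CCAAT box. The GC box was searched as GGGCGG. A GC-rich motif that BMP-activated SMADs can bind was searched as GGCGCC, and the AP-1 motif as TGANTCA.
Col1a2: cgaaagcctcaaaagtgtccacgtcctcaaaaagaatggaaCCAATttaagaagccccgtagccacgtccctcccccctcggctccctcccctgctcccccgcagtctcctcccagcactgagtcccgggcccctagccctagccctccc
Col3a1: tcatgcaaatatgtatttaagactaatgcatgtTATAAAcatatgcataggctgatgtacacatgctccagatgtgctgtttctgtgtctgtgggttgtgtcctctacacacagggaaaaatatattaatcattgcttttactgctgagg
Col5a3: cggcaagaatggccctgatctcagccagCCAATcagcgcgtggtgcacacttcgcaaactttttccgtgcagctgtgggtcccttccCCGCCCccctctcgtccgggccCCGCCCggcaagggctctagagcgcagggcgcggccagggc
Mmp11: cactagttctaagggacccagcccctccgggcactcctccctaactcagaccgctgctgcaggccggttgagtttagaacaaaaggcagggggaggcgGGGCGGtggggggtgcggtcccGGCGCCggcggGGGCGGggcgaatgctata
The stretch of Col1a2 held CCAAT alone, that of Col3a1 TATAAA alone, that of Col5a3 CCAAT and GGGCGG, and that of Mmp11 GGGCGG and GGCGCC. Over the 250 bases before the start, GGGCGG was in 57.1% of the 56 matrix gene promoters and in 32.9% of the first listed promoter of 27025 genes, non-coding ones included. CCAAT was in 30.4% and 34.5%, TATAAA in 8.93% and 13.0%, GGCGCC in 10.7% and 9.54%, and TGANTCA in 1.79% and 6.87%. GGCGCC was in 5 of 40 promoters of genes called lower and 1 of 9 of those called higher. Matches of GGGCGG and GGCGCC may overlap each other. Among the 8 fibrillar collagen promoters matched, GGGCGG was in 6, CCAAT in 3, TATAAA in 2 and GGCGCC in 1. A match is a string of letters and not a bound site.

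The other fibrillar chains differed in the size of their fall. Col5a3, of type V collagen, which seeds fibrils and sets their diameter, was at 25.3, 25.5 and 24.8 in Noggin-deficient muscle and 38.4 and 37.9 in the wild type samples. Its change of -0.59 (SE 0.0277, limma's adjusted p = 1.4e-06) was the largest of the class, and it alone remained lower both under median-of-ratios scaling (-0.32) and with the length trend taken out (-0.24). Its partner chains changed less, Col5a1 by -0.28 and Col5a2 by -0.25. With the length trend taken out those 2 were the chains called higher, Col5a1 at 0.11 (limma's adjusted p = 0.0042) and Col5a2 at 0.11 (limma's adjusted p = 0.0031). The cartilage chains Col2a1, Col11a1 and Col11a2 changed by -0.29, -0.41 and -0.35. Col2a1, the main collagen of cartilage, was at 62.6, 62.1 and 62.3 against 77.0 and 75.5. Col24a1 and Col27a1, fibrillar chains known from developing bone and cartilage, had changes of -0.23 and -0.26. Both lost the call when wild type replicate 1 was left out (Col24a1 -0.17, limma's adjusted p = 0.07; Col27a1 -0.18, limma's adjusted p = 0.11).

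**Figure D3:**
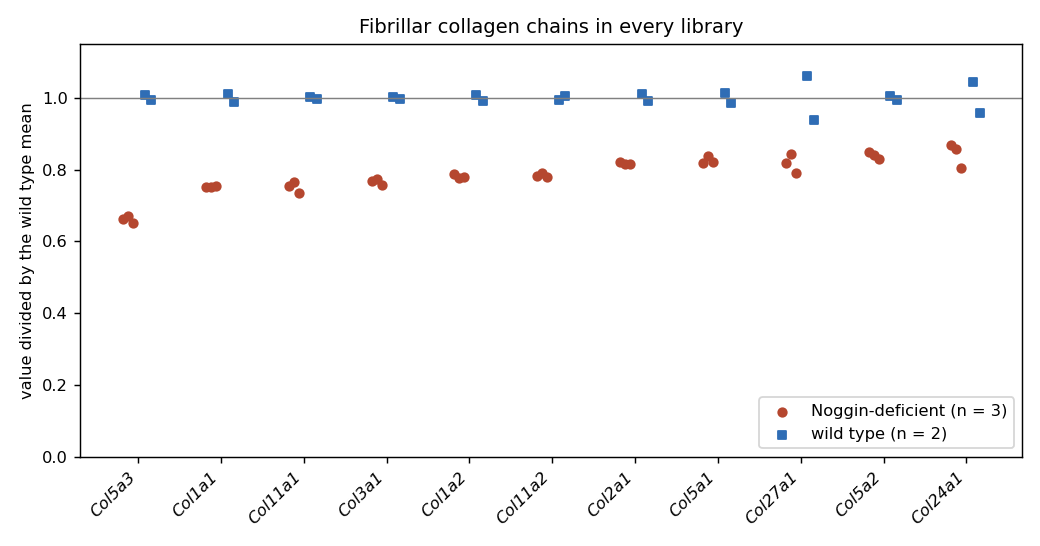
For each of the 11 fibrillar collagen chains, ordered by log2 change, the value in each Noggin-deficient (circles, n = 3) and wild type library (squares, n = 2) is divided by the chain's wild type mean. The Noggin-deficient libraries lie between 0.65 and 0.869 of the wild type mean, with Col5a3 lowest, and no chain's groups overlap.

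Ratios of genes within a library do not depend on how libraries were scaled. They keep the trend on transcript length where the genes of a pair differ in length. Of 8 ratios computed, 7 differed without overlap between the groups. Among single genes, 98.2% of the 4743 in the tables did so, and no share over all pairs of genes was computed. Those of Mmp9 to Timp3, Mmp11 to Adamts14 and Fbln2 to Fbn1 set a gene that rose over one that fell, so their groups could not overlap. The ratio of Col5a3 to Col5a1 was 0.0987, 0.0973 and 0.0965 in the Noggin-deficient libraries and 0.121 and 0.123 in the wild type libraries, 0.801-fold. The ratio of Col11a1 to Col2a1 was 0.919-fold and that of Col1a1 to Col1a2, the chains that assemble together, 0.964-fold of the wild type. The ratio of Col3a1 to Col1a1 overlapped between the groups, at 0.348 to 0.357 against 0.344 and 0.350. Type I and type III collagen transcripts thus kept nearly the same proportion in all 5 libraries, while Col5a3 was lower relative to Col5a1.

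The other collagens held members that went both ways, 6 falling and 2 rising of 8 tested (median -0.40, with 60.1% of all genes lower). Col7a1, which forms the anchoring fibrils under epidermis, was at 16.9, 17.3 and 17.1 against 27 and 26.2, a log2 change of -0.63 (SE 0.0304, limma's adjusted p = 1.5e-06). Col6a3, a chain of the microfibrillar type VI collagen that surrounds muscle fibres, averaged 135.3 ± 0.854 (SD, n = 3) against 191.4 ± 3.35 (SD, n = 2), a change of -0.50. The fibril-associated chains Col12a1, Col14a1 and Col9a1 changed by -0.45, -0.35 and -0.34, and Col17a1, a transmembrane collagen of basal keratinocytes, by -0.45. Col8a2, a short-chain network collagen, rose instead: it was at 23.6, 22.5 and 23.6 against 16.9 and 16.2, a change of 0.48 (SE 0.0359, limma's adjusted p = 1.3e-05) that was 0.75 under median-of-ratios scaling and 0.74 with the length trend taken out. Col13a1, a transmembrane collagen of the neuromuscular junction, rose by 0.42. Under median-of-ratios scaling 5 of the 8 were lower, and with the length trend taken out 4 were, with both rises called in each. Col12a1 and Col14a1 were then at -0.03 and 0.01, without a call. Col6a4 was too low to test, at 0.22, 0.24 and 0.23 against 0.16 and 0.11.

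The 4 collagen-modifying enzymes in the tables fell, with a median of -0.47, where 60.1% of all genes tested fell. P4ha2, a prolyl 4-hydroxylase subunit that stabilises the collagen helix, was at 13.4, 13.8 and 13.4 in Noggin-deficient muscle and 21.8 and 21.3 in the wild type samples. Its change of -0.66 (SE 0.0313, limma's adjusted p = 1.4e-06) was -0.39 under median-of-ratios scaling and -0.71 with the length trend taken out. The ratio of P4ha2 to Col1a1, with transcripts of 2263 and 5930 bases and the length trend left in, was 0.836-fold of the wild type. The lysyl oxidases Loxl4, Loxl2 and Lox, which cross-link collagen and elastin, changed by -0.61, -0.33 and -0.25. Loxl4 remained lower under both alternatives (-0.36 and -0.39). Loxl2 did not, at -0.06 and -0.0032, and Lox turned to 0.02 and 0.04 without a call. Of 27 symbols of further collagen biosynthesis genes, only Creb3l1, a transcription factor of secretory cells, and Tmem38b, an ion channel of the endoplasmic reticulum, had values, and both fell (-0.35 and -0.40). Creb3l1 was at 60.8, 64.1 and 59.5 against 78.8 and 77.6.

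Of 10 basement membrane genes tested, 7 fell, a share near the 60.1% of all genes, 2 rose and 1, Col4a6, missed the test (-0.22, limma's adjusted p = 0.052). Their median was -0.33, moving to -0.06 with median-of-ratios scaling and to the other sign, 0.05, with the length trend taken out. Lama2, the laminin alpha chain of the muscle fibre sheath, was at 7.22, 7.40 and 7.12 against 10.1 and 10.4, a log2 change of -0.49 (SE 0.0381, limma's adjusted p = 1.5e-05). It was -0.22 and still called under median-of-ratios scaling, and -0.09 without a call with the length trend taken out (limma's adjusted p = 0.092). Lamc1, the gamma chain shared by most laminins, and Nid1, nidogen, which links laminin to type IV collagen, changed by -0.28 and -0.31. They were at -0.01 and -0.04 without a call under median-of-ratios scaling, and Lamc1 was called higher with the length trend taken out (0.09, limma's adjusted p = 0.0089). Lama5 changed by -0.35. The 2 rises were in chains with low values. Lama1, of the early embryonic laminin, was at 0.55, 0.68 and 0.64 against 0.40 and 0.33, and Lamc3 at 0.92, 0.97 and 1.02 against 0.53 and 0.52. Lamc3 rose by 0.65 and Lama1 by 0.51, and both rose under either alternative (0.85 and 0.68, then 1.0 and 0.91).

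Genes of the junction between epidermis and dermis were among the falls. Lama3 and Lamb3 encode laminin chains found under epidermis and changed by -0.55 and -0.40. Lama3 was at 1.78, 1.80 and 1.72 against 2.76 and 2.65. With Col7a1, Col17a1 and Itga6, a laminin receptor chain of basal keratinocytes, these 5 genes had a median of -0.45. All 5 fell as deposited, 4 remained lower under median-of-ratios scaling and 3 (Col7a1, Col17a1 and Itga6) with the length trend taken out. Over all genes tested the shares lower were 60.1%, 32.5% and 34.8%, in that order. The grouping was made with the values known. Markers of epidermis moved the same way: 25 of 25 tested, of 28 symbols, fell, against 60.1% of all genes, with a median of -1.30. Krt2, too low to test, went the other way, at 0.17, 0.14 and 0.10 against 0.01 and 0.03. The listed values summed to between 1469 and 1516 in the Noggin-deficient and between 3510 and 3541 in the wild type libraries, with none at 0 in any library. The part of these markers in the matrix result was not tested.

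The integrin class, which counts Itgbl1, fell in all 7 tested, with a median of -0.40, while 60.1% of all genes tested fell. Of the 29 symbols of this class in RefSeq 9 were in the tables. Itga7, the laminin receptor chain of muscle, was at 15.7, 15.7 and 16 in Noggin-deficient muscle and 19.9 and 19.5 in wild type muscle, a change of -0.31 (SE 0.0297, limma's adjusted p = 4e-05). It was at -0.04 without a call under median-of-ratios scaling (limma's adjusted p = 0.25). Itga6 was at 8.47, 8.53 and 8.35 against 11.5 and 11.4, a change of -0.43, and was the only integrin called with the length trend taken out (-0.17). Itgav and Itgb3, which pair as a receptor for vitronectin and other RGD-containing proteins, changed by -0.40 and -0.38. Itga2, of a collagen receptor, changed by -0.48 and Itgb6, of an epithelial receptor, by -0.24. Itgb6 missed the test without wild type replicate 2 (-0.22, limma's adjusted p = 0.067). Itgbl1, a secreted integrin-like protein and no receptor chain, changed by -0.55. Leaving out wild type replicate 2 moved that to -0.36 and leaving out wild type replicate 1 to -0.74, and it was not called under median-of-ratios scaling (-0.33, limma's adjusted p = 0.055) or with the length trend taken out (-0.31, limma's adjusted p = 0.065). The integrins still called lower under median-of-ratios scaling were Itga2, Itga6 and Itgav. Itgb8 and Itgb2l were too low to test: Itgb8 was at 0.14, 0.24 and 0.21 against 0.41 and 0.38, and Itgb2l at 0.05, 0.05 and 0.04 while listed at 0 in both wild type samples.

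Matrix receptors outside the integrins fell too. Of 21 symbols 7 were tested and all 7 were lower, with a median of -0.53, while 60.1% of all genes tested were lower. Cd44, the hyaluronan receptor, was at 18.6, 18.6 and 18.4 against 31.8 and 31.2, a log2 change of -0.76 (limma's adjusted p = 4.4e-07). Dag1, of dystroglycan, the laminin receptor of the muscle membrane, was at 45.4, 45.7 and 46.9 against 62.8 and 62.3, a change of -0.44. Utrn, Sgcd and Dmd, partners of dystroglycan, changed by -0.55, -0.53 and -0.53. Under median-of-ratios scaling 5 of the 7 remained lower. With the length trend taken out 4 were lower, 1 was higher and 2 were not called, and the median moved to -0.10. Cspg4, a proteoglycan of pericytes, turned from -0.24 to a call higher (0.15, limma's adjusted p = 0.0055), and Dmd moved to -0.09 without a call (limma's adjusted p = 0.43). Skeletal muscle markers fell in the same samples, 15 of 15 tested, with a median of -0.55 and listed values summing to between 5813 and 6074 against 8203 and 8373. Their part in the matrix result was not tested.

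The proteases and their inhibitors went both ways, in part by family. Of 16 tested, 10 fell, a share near the 60.1% of all genes, 5 rose and 1 did not pass, with a median of -0.31, which moved to -0.07 under median-of-ratios scaling and 0.01 with the length trend taken out. The median hides the widest range of any class, from -0.87 to 1.53. The ADAMTS family, secreted proteases and related proteins with thrombospondin repeats, fell in 7 of 7 (median -0.52), against 60.1% of all genes. Of the 7, 5 remained lower under either alternative. Of the MMPs 3 of 5 tested rose, against 37.9% of all genes, 1 fell (Mmp19) and 1 was not called (Mmp25). The same count of rises was found under both alternatives, with no fall. Of the ADAM genes, membrane-bound relatives, 2 of 3 rose. The families were set apart with the values known.

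Adam11, of a catalytically inactive ADAM known from the nervous system, had the largest change of all the matrix genes. It was at 3.48, 3.78 and 3.35 in Noggin-deficient muscle and 1.02 and 1.10 in wild type muscle, a difference in log2 of 1.53 (SE 0.0751, limma's adjusted p = 1.6e-06). Mmp11, stromelysin-3, a protease of remodelling stroma, was at 27, 26.5 and 25.6 against 14.1 and 14.6, a change of 0.87 (SE 0.0342, limma's adjusted p = 6.2e-07). Mmp9, a gelatinase of osteoclasts and white blood cells, was at 23.5, 22.9 and 23.7 against 13.1 and 13.2, a change of 0.82 (SE 0.0301, limma's adjusted p = 4.5e-07). These 3 rose by more than 1.5-fold by the stricter test (limma's adjusted p = 4.1e-05, 0.00041 and 0.00057) and were as high or higher under median-of-ratios scaling, at 1.76, 1.14 and 1.09. With the length trend taken out they were at 1.85, 0.83 and 0.97. Mmp28, epilysin, rose by 0.67 and Adam8, of myeloid cells, by 0.43.

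Other cell types whose genes include these proteases also moved. Their counts stand beside 37.9% of all genes tested that rose and 60.1% that fell. Neutrophil and macrophage genes, a list written after values had been seen, rose in 9 of 9 tested, of 15 symbols, with a median of 0.79. Their summed values lay between 35.8 and 37.6 against 21.1 and 21.6. The median transcript of the listed genes was 1004.5 bases, and 58.8% of all genes under 3000 bases had a positive log2 change. Elane was listed at 0 in 1 library. With the length trend taken out 6 of the 9 were called, and S100a8 (0.21), S100a9 (0.26) and Lcn2 (0.37) were not (limma's adjusted p = 0.27, 0.087 and 0.097). Of 9 osteoclast symbols, on a list written at the same time, 2 were tested and both rose, Atp6v0d2 by 0.44 and Oscar by 0.44. Oscar was not called with the length trend taken out (0.28, limma's adjusted p = 0.13). Calcr, too low to test, went the other way, at 0.07, 0.07 and 0.08 against 0.2 and 0.25. The 3 listed osteoclast genes had values summing to between 1.72 and 1.84 against 1.34 and 1.38. Peripheral nerve genes rose in 8 and fell in 5 of 13 tested, summing to between 64.9 and 66.6 against 53.5 in each wild type library. The part of these lists in the rises of Mmp9, Adam8 and Adam11 was not tested.

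Among the falls, Adamtsl4, an ADAMTS-like protein that binds microfibrils, was at 2.4, 2.41 and 2.61 against 4.77 and 4.66, a change of -0.87 (SE 0.0600, limma's adjusted p = 8.8e-06) that also passed against 1.5-fold (limma's adjusted p = 0.0085). Adamts19 changed by -0.77, Adamtsl5 by -0.53 and Adamts8 by -0.52. Adamts14, a procollagen N-propeptidase, was at 9.89, 9.59 and 9.5 against 13.8 and 14.1, a change of -0.52. Adamts12 changed by -0.35 and turned to 0.04 with the length trend taken out, without a call. Adamts6, at -0.27, lay at the threshold (limma's adjusted p = 0.05) and missed it in 4 of the 5 fits that left out 1 library. Timp3, the matrix-bound inhibitor, was at 7.13, 7.53 and 6.84 against 9.02 and 8.89, a change of -0.31 that was -0.05 under median-of-ratios scaling without a call. The ratio of Mmp9 to Timp3 within a library was 3.29, 3.04 and 3.46 in the Noggin-deficient and 1.45 and 1.48 in the wild type samples, 2.23-fold higher. The ratio of Mmp11 to Adamts14 was 2.65-fold higher. Both ratios are free of library scaling but not of the length trend, with transcripts of 3175 and 4722 bases for Mmp9 and Timp3 and 2288 and 5188 for Mmp11 and Adamts14. With that trend taken out Mmp11 was at 0.83 and Adamts14 at -0.20. Each ratio sets a gene that rose over one that fell, so the lack of overlap between their groups adds nothing to the values above.

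The rest of the class changed little or was low. Adam12, of fusing muscle cells and mesenchyme, changed by -0.24 and turned to 0.03 under median-of-ratios scaling and to a rise of 0.14 with the length trend taken out (limma's adjusted p = 0.0084). Mmp19 changed by -0.31 and was not called under either alternative. Mmp25, at 0.62, 0.58 and 0.33 against 0.77 and 0.63, did not pass (limma's adjusted p = 0.11). Adam5, Mmp24 and Mmp27 were too low to test. Mmp24 was at 0.15, 0.11 and 0.12 against 0.02 and 0.03, Adam5 at 0.19, 0.21 and 0.13 against 0.06 and 0.10, and Mmp27 at 0.08, 0.11 and 0.04 against 0.25 and 0.33.

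**Figure D4:**
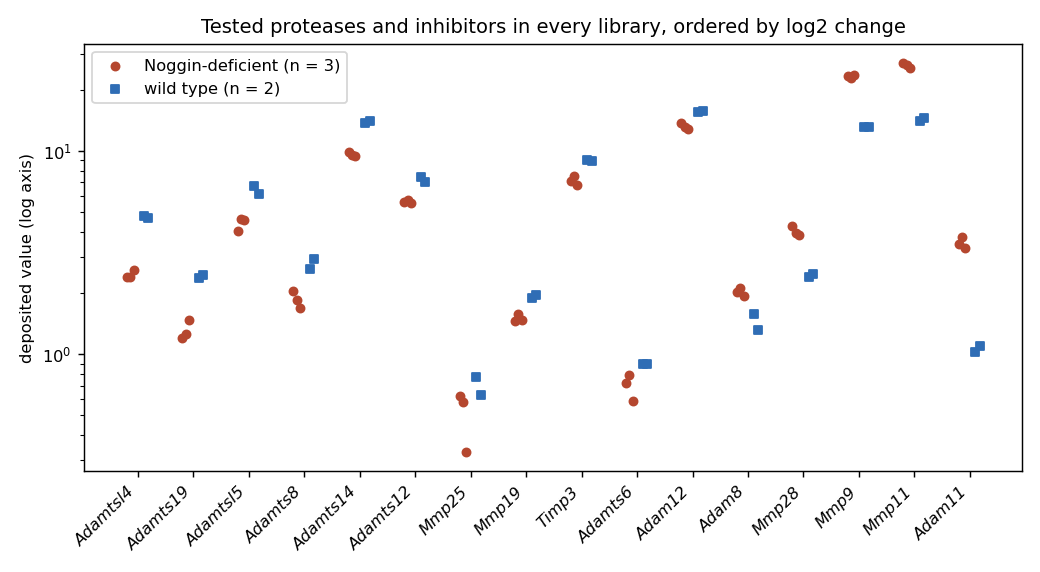
Deposited values on a log axis are shown for the 16 tested proteases and inhibitors in every library (circles, Noggin-deficient, n = 3; squares, wild type, n = 2), ordered by log2 change from Adamtsl4 to Adam11. The ADAMTS genes lie on the left with lower Noggin-deficient values, and Adam8, Mmp28, Mmp9, Mmp11 and Adam11 lie on the right with higher ones.

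Elastic fibre and latent TGF-beta binding genes parted, 4 falling and 2 rising of 6, again near the share of all genes that fell. Fbn1, of fibrillin-1, the backbone of microfibrils, was at 35.0, 35.4 and 34.9 in Noggin-deficient muscle and 49.8 and 48.5 in wild type muscle, a change of -0.48 (SE 0.0267, limma's adjusted p = 2.9e-06). It was -0.21 and still called under median-of-ratios scaling, and -0.06 without a call with the length trend taken out (limma's adjusted p = 0.062). Emilin2 and Ltbp2, which sit on elastic fibres, changed by -0.60 each and remained lower under median-of-ratios scaling (-0.33 and -0.35) and with the length trend taken out (-0.37 and -0.24). Fbln2, of fibulin-2, was at 84.8, 85.0 and 85.8 against 64.4 and 65.0, a rise of 0.40 (SE 0.0246, limma's adjusted p = 5.2e-06). Efemp2, of fibulin-4, which carries lysyl oxidase to elastin, was at 81.6, 82.2 and 81.6 against 63.6 and 63.5, a rise of 0.36 (SE 0.0242, limma's adjusted p = 7.5e-06). Both rises were larger under median-of-ratios scaling, at 0.67 and 0.64, and with the length trend taken out, at 0.69 and 0.41. The ratio of Fbln2 to Fbn1, a gene that rose over one that fell, was 2.42, 2.4 and 2.46 against 1.29 and 1.34, 1.84-fold higher with the length trend left in. Fbln7 changed by -0.25 and missed the test without wild type replicate 1 (-0.215, limma's adjusted p = 0.087). Of 20 symbols of TGF-beta signalling and its targets, 3 were tested: Smad7 and Tagln rose (0.41 and 0.36) and Bhlhe40 fell (-0.64).

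Of the 9 adhesive and matricellular glycoproteins 7 fell and 2 rose, where 60.1% of all genes tested fell. Tnxb, of tenascin-X, which spaces collagen fibrils, was at 13.0, 13.8 and 13.5 against 24.4 and 22.8, a change of -0.80 (SE 0.0417, limma's adjusted p = 2.2e-06). Dpt, of dermatopontin, a small protein of dermis and fascia, was at 68.8, 66.8 and 67.9 against 111.5 and 113.4, a change of -0.73 (SE 0.0265, limma's adjusted p = 4.4e-07). Both passed against 1.5-fold (limma's adjusted p = 0.0054 and 0.0044) and remained lower under median-of-ratios scaling (-0.53 and -0.45) and with the length trend taken out (-0.38 and -0.90). Fn1, of fibronectin, was at 115.8, 119.0 and 114.7 against 142.0 and 139.4. Its change of -0.27 vanished under median-of-ratios scaling (0.00) and became a call in the other direction with the length trend taken out (0.11, limma's adjusted p = 0.0045). Postn, of periostin, a protein of tendon and periosteum, averaged 448.3 ± 10.2 (SD, n = 3) against 548.5 ± 9.58 (SD, n = 2), a change of -0.29. The thrombospondins Thbs2, Thbs3 and Thbs4 changed by -0.49, -0.39 and -0.29. Postn and Thbs4 lost their call under median-of-ratios scaling, both at -0.02 (limma's adjusted p = 0.69 and 0.63), and kept it with the length trend taken out (-0.14 and -0.13). Sparcl1, of a SPARC relative found along vessels, rose by 0.39, from 66.7 and 66.3 to 87.4, 89.4 and 84.7, and Matn4, of a cartilage-associated matrilin, by 0.55. Both rose under each alternative as well (0.66 and 0.80, then 0.46 and 0.51). Endothelial markers rose in the same samples, 4 of 4 tested of 17 symbols, against 37.9% of all genes. Their listed values summed to between 142.6 and 146.0 against 97.0 and 99.9, and their part in the rise of Sparcl1 was not tested.

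The 3 proteoglycans in the tables fell, as did 60.1% of all genes tested. Acan, of aggrecan, the large proteoglycan of cartilage, was at 6.11, 5.85 and 6.13 against 8.64 and 8.39, a change of -0.48 (SE 0.0422, limma's adjusted p = 2.7e-05). Vcan, of versican, its relative in loose tissue, changed by -0.37 and Fmod, of fibromodulin, which binds collagen fibrils in tendon, by -0.29. Vcan turned to 0.05 with the length trend taken out, without a call, and Fmod was at -0.02 under median-of-ratios scaling. Among 37 symbols of other matrix and linking proteins, 13 were tested, of which 5 rose and 7 fell (median -0.30). Under median-of-ratios scaling 4 were lower and the median was -0.04, and with the length trend taken out 4 were lower and the median turned to 0.04. Has3, a hyaluronan synthase, and Aspn, of asporin, fell by 0.64 and 0.61, while Podnl1, Epyc and Omd, all small leucine-rich proteoglycans, rose by 0.89, 0.69 and 0.66.

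Cartilage and bone genes give the setting for the skeletal members. Each count here stands beside 60.1% of all genes tested that fell and 37.9% that rose. Of 7 matrix genes characteristic of cartilage (Col2a1, Col9a1, Col11a1, Col11a2, Col27a1, Acan and Matn4) 6 fell and 1 rose. Their median of -0.34 moved to -0.08 under median-of-ratios scaling and 0.00 with the length trend taken out. Their median transcript was 6048 bases, and 11.3% of all genes from 5000 to under 7000 bases had a positive log2 change. Of 6 tested cartilage markers outside the matrix set, on a list of 16 symbols, 4 fell and 2 rose, Cytl1 changing by -0.90 and Ucma by -0.77. Their listed values summed to between 50.7 and 52.5 in the Noggin-deficient and to between 45.4 and 46.0 in the wild type libraries, a sum carried by Pth1r, a hormone receptor also made by bone, which rose by 0.39. Bone markers, Pth1r again among them, rose in 6 of 6 tested of 14 symbols, against 37.9% of all genes, with a median of 0.56. Their sums lay between 140.4 and 144.3 against 102.9 and 105.9. Type I collagen, the main protein of bone matrix, fell as deposited in the same libraries. Of the tendon list, of 9 symbols, Htra3 alone was tested (-0.28). Fibroblast markers fell in 4 and rose in 4 of 8 tested, with sums between 233.0 and 236.8 against 208.8 and 210.8. Liver genes rose in 14 of 14 tested (129.4 to 130.8 against 8.94 to 9.07, with 6 of them listed at 0 in some library), as did 8 of 8 erythroid genes (223.4 to 229.8 against 96.3 to 100.4). The part of these tissues in the matrix values was not tested.

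**Figure D5:**
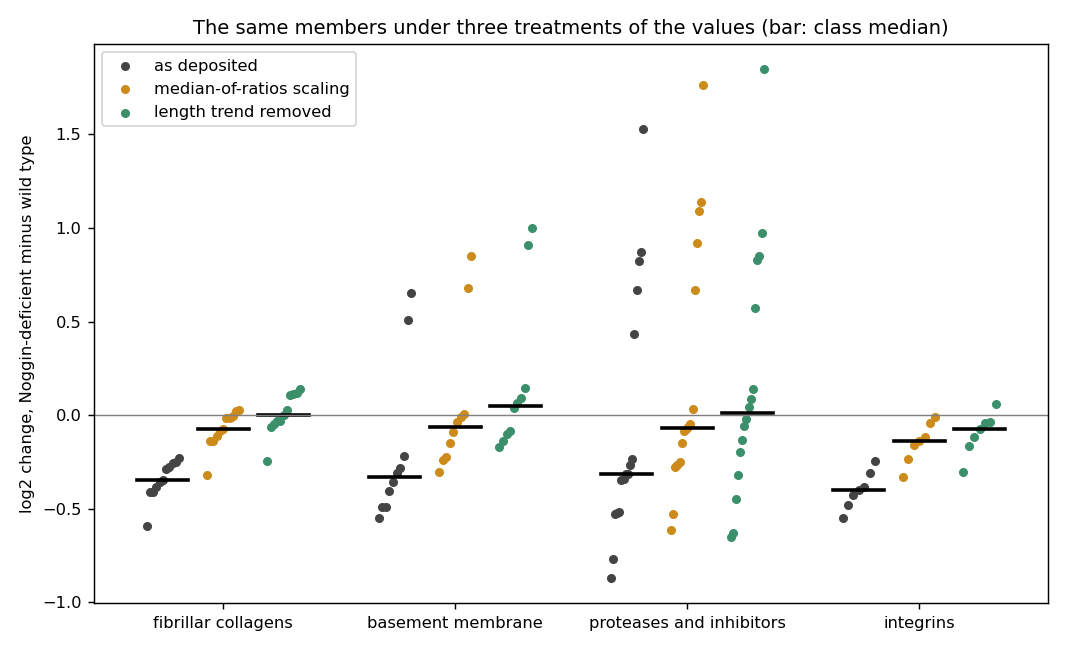
The log2 changes of the tested members of 4 classes are shown as deposited (grey), under median-of-ratios scaling (orange) and with the length trend taken out (green), with black bars at the class medians. The fibrillar collagens move from -0.35 to -0.08 and 0.00, and the 5 proteases that rose stay above 0.4 in all 3.

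Symbols matched by the rule that encode no matrix protein were counted but kept apart. Itgb1bp2, of melusin, a muscle protein that binds an integrin tail, was at 101.5, 98.9 and 98.5 against 139.2 and 143.3, a change of -0.50. Col4a3bp, of a ceramide transfer protein, changed by -0.36, and Itgb3bp, of a centromere protein, rose by 0.40. By RefSeq symbols, 82 of 222 genes that meet the rule were in the tables (36.9%), against 18.7% of 21900 protein-coding genes. Genes were counted whether or not this tissue expresses them, and the comparison was not matched for expression level or transcript length. The shares were 45.5% for basement membrane, 31.0% for integrins and 22.6% for proteases and inhibitors. Members of the rule without values in the tables, among them Col4a1, Col4a2, Itgb1, Mmp2, Mmp14, Dcn and Sparc, were not analysed here.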

How the data were processed

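Forelimb muscle RNA of 3 Noggin-deficient and 2 wild type embryo samples was sequenced after 11 cycles of PCR, per the labels' protocols. The deposited files give a normalized expression signal per gene and sample, whose unit, counter and annotation the sources used here do not give. Per the submitters' processing notes, STAR 2.4.2a, DESeq2 and build mm9 were used, with no role stated. Depth is unknown, so no counting interval is given. The smallest non-zero value of 134 genes with a 0 in some library was lower for longer transcripts (Spearman -0.406 across genes). Whole reads could not be recovered.

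Here, log2(value + 0.25) was fitted with limma 3.58.1 (trend) in R 4.3.3 on the 3913 of 4743 genes with at least 0.5 in at least 2 libraries, with Benjamini-Hochberg adjusted p under 0.05 called. Fold changes are on that scale, which understates changes of low genes. Differences beyond 1.5-fold were tested with limma's treat. The length trend was a lowess fit (span 0.4) on the longest GENCODE M21 transcript, known for 94.1% of genes and all 83 matrix genes. The fit was tested on simulated data. Alternatives were another pseudocount, filter and scaling, the length trend, a replicate block and leaving out each library.

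The members, classes and lists were chosen with earlier results of these data known. The neutrophil and osteoclast lists and the protease family, epidermal and cartilage groupings were made after values had been seen. A rule named 47 members: in each class the called genes with a mean of 2 or more that rose most (3) and fell most (3), and 27 fixed genes, of which 13 were not analysed here. The other members are named outside that rule. The values of 1 member are not reported here, though it is counted in its class.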

Additional observations from a re-analysis of the deposited data

How the results depend on the processing

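The counts of matrix genes called, 14 higher and 61 lower, were within 1.5 times under another pseudocount, filter or the replicate block. Lower calls came to 34 under median-of-ratios scaling and 24 with the length trend taken out, and calls against a 1.5-fold change to 3 in each direction. Leaving out each library, where a lone wild type library was assumed to vary like the others, gave 14 higher and 57 to 62 lower. Their median was -0.325 with a pseudocount of 1, -0.366 with the stricter filter, -0.082 under median-of-ratios scaling, -0.034 with the length trend taken out and -0.359 to -0.337 without 1 library. The medians of fibrillar collagens, basement membrane, proteases and integrins were -0.077, -0.063, -0.069 and -0.137 under median-of-ratios scaling, and 0.0012, 0.051, 0.012 and -0.075 with the length trend taken out. The first 3 of these turned sign. Without 1 library they were -0.352 to -0.337, -0.341 to -0.314, -0.347 to -0.248 and -0.412 to -0.384. A pseudocount of 1 gave -0.226 for proteases and -0.344 for integrins, and the stricter filter -0.403 for basement membrane.

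Single genes turned sign under 2 settings only. Under median-of-ratios scaling 6 did: Adam12 (0.033), Col24a1 (0.026), Col4a6 (0.0062), Col5a2 (0.021), Fn1 (0.0007) and Lox (0.019). With the length trend taken out 18 did: Adam12 (0.141), Adamts12 (0.043), Adamts6 (0.088), Col11a2 (0.0012), Col14a1 (0.0056), Col24a1 (0.139), Col27a1 (0.12), Col2a1 (0.027), Col4a6 (0.143), Col5a1 (0.111), Col5a2 (0.107), Fn1 (0.115), Itgb6 (0.057), Lama5 (0.063), Lamc1 (0.092), Lox (0.042), Nid1 (0.039) and Vcan (0.0504). A further 22 and 20 lost their call with the sign kept. The cause was not tested.

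With the replicate number as a block 14 members were higher and 59 lower, Adamts6 and Itgb6 losing their call, and the median was -0.248 for proteases and -0.412 for integrins. The groups share the numbers 1 and 2, and the difference between replicates 1 and 2 correlated at -0.11 between the genotypes, over genes. That is 1 difference per genotype, so it cannot tell whether same-numbered libraries share more than a number. The depth is unknown, so what it limits was not tested.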
